A study of Rattus norvegicus with 6 samples.

Results

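Cyclins and their partner kinases were followed through 10 genes, named by symbol: the D-type cyclins Ccnd1, Ccnd2 and Ccnd3, the E-type cyclins Ccne1 and Ccne2, the A-type cyclin Ccna2, the B-type cyclins Ccnb1 and Ccnb2, and the cyclin-dependent kinases Cdk1 and Cdk2. All 10 were found among the 22093 genes that the array annotation names one by one, on 12 rows of the table. Ccnb2 and Ccnd3 had a pair of rows each, and for these the row with the higher mean over the 6 arrays was used. RNA came from the Achilles tendon of the left hindlimb of 3 newborn rats, 1 day of age (P 1d), and from 3 older ones at 6 to 8 weeks of age (P 6-8w), with 1 rat on each array; per the study's methods these were male Sprague Dawley rats, and per the labels the skin had been removed. Expression was read on Affymetrix Rat Transcriptome Arrays, and the values are log2 signals from robust multichip analysis (RMA), which combines the many short probes of a transcript into a single value. Differences are P 6-8w minus P 1d on this log2 scale, and a gene was called lower or higher at a Benjamini-Hochberg adjusted p under 0.05 from limma with a log2 difference beyond 1, a 2-fold change.

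Cyclins are regulatory subunits that switch on cyclin-dependent kinases (CDKs), and most of them are made and destroyed once in every cell cycle. D-type cyclins answer to growth factors and act with Cdk4 and Cdk6 in G1, E-type cyclins act with Cdk2 at the start of DNA replication, cyclin A2 acts with Cdk2 in S phase and with Cdk1 later, and B-type cyclins act with Cdk1 to bring about mitosis. In tendon, cells divide around birth and have largely stopped dividing in the adult.

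The arrays did not differ in age alone. The median signal of all rows was 3.93 to 3.98 at P 1d and 4.43 to 4.54 at P 6-8w, while 2783 to 2873 genes reached a signal of 8 at P 1d and 968 to 1607 at P 6-8w, fewest on P 6-8w replicate 2. Epidermal markers stood high on P 1d replicates 1 and 3 (mean signal of 8 markers 9.93 and 12.13) and low on replicate 2 (4.26) and at P 6-8w (4.64 to 4.84). The mean signal of the 10 cyclin and CDK genes was 7.69, 7.68 and 7.71 on P 1d replicates 1, 2 and 3. Of these genes 3 had the same value on all 3 P 1d arrays, for a reason not known. These means therefore cannot show whether epidermal RNA contributed, which was not tested. Of 12 skeletal muscle markers 8 were lower and 2 higher at P 6-8w, with mean signals of 14.21 to 14.64 at P 1d and 10.93 to 12.98 at P 6-8w. The largest falls were in the myosin genes Myh3 (-10.55) and Myh8 (-8.94), and the 2 higher were the myosin genes Myh4 (8.31) and Myh1 (3.95). The list mean thus mixes changes both ways and does not measure the amount of muscle. The part of muscle RNA in the results was not tested. None of 8 erythroid markers was called, but in 5 of them all P 6-8w arrays lay above all P 1d arrays, as they did in 7685 of all 22093 genes. Their mean signals were 5.57 to 6.55 at P 1d and 6.7 to 7.21 at P 6-8w. Of 8 leukocyte markers 1 was lower (Cd68, a macrophage gene, at -1.25) and 1 higher (Lyz2, lysozyme, at 1.08). Of 7 endothelial markers 2 were lower and 1 higher. Of 8 tendon markers 1 was lower (Tnc, tenascin C, at -2.51). Tnmd (tenomodulin) had signals of 13.44 to 14.91 at P 1d and 9.36 to 13.47 at P 6-8w, whereas the tendon transcription factors Scx and Mkx lay between 4.44 and 5.08 on all 6 arrays, near the median of all genes (4.61 to 4.79). In bulk tissue such as this, fewer dividing cells and less RNA per cell cannot be told apart.

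Promoter sequences are shown for 3 genes of mitosis that stood lower together at P 6-8w. Beside them stands Ccnd3, which was not called but is not unchanged: at -0.85 it missed the fold limit. RefSeq promoters (build GRCr8, 250 bases before to 50 after the start) matched 6 of the 10 genes by symbol: Ccnb1, Ccnb2, Cdk1, Cdk2, Ccne1 and Ccnd3. The 200 bases shown of each run from position -150 to 50, counted from 1 at the first base of the start with no position 0. Capitals mark CCAAT, the box bound by NF-Y. They also mark letters of the cell cycle homology region type, TTTGAA and its variants with either TTCGAA or else TTTAAA, and letters of the E2F type, TTTGGCGC, TTTCCCGC, TTTCGCGC or TTTGCCGC. Each was searched on both strands (CCAAT on the other strand reads ATTGG), and none overlapped another in the stretches shown. They lie at chr2:33655176-33655375 (minus strand), chr8:79981609-79981808 (minus strand), chr20:19265143-19265342 (plus strand) and chr9:20897826-20898025 (minus strand).
Ccnb1 promoter: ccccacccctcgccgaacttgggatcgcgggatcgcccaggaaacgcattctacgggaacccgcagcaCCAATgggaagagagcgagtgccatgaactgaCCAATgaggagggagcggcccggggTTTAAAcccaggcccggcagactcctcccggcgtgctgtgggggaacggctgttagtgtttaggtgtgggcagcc
Ccnb2 promoter: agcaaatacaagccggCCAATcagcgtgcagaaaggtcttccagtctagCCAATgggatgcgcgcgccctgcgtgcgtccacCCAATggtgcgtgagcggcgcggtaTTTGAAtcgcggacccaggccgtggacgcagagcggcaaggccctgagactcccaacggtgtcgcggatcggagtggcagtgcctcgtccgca
Cdk1 promoter: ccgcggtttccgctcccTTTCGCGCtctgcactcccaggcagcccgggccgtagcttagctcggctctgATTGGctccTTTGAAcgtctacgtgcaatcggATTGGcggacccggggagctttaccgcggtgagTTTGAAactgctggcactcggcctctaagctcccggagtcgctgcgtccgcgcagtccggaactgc
Ccnd3 promoter: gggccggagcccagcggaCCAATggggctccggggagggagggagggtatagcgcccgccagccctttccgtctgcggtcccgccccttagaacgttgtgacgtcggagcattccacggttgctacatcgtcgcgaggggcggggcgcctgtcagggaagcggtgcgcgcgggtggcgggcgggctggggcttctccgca

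Ccnb1 held CCAAT at -82 and -50, which is 32 bases apart, and TTTAAA at -25. In Ccnb2 the same letters stood at -134, -101 and -68, with 33 bases between neighbours, followed by TTTGAA at -43 (and TTTGAA at -214, outside the stretch). In Cdk1 they stood on the other strand at -81 and -49, again 32 bases apart (and at -210, outside the stretch), with TTTGAA at -72 and -16 and the E2F letters TTTCGCGC at -133. Ccnd3 and Cdk2 had 1 CCAAT each, at -132 and -117, and Ccne1 had TTTAAA at -38 and no CCAAT. Cdk2 and Ccne1 were also called lower at P 6-8w (-2.65 and -1.07), so not every lower gene had a pair of CCAAT. Of 33469 RefSeq promoters of the full length, 37.5% held CCAAT, 18.3% TTTGAA, 13.6% TTTAAA, 1.69% TTCGAA, and 2.14% any of the E2F letters (0.326% TTTCGCGC). A pair of CCAAT 31 to 34 bases apart on 1 strand occurred in 0.735%, an interval set after the 3 promoters had been read. A match describes letters, and the binding of a factor was not measured.

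At P 6-8w, 7 of the 10 genes were lower and none higher, and the 3 that were not called were the D-type cyclins; these are the values as deposited, and under other scalings of the arrays 1 to 7 were lower. Over all 22093 genes 16.8% were called lower and 2.46% higher. In 8 of the 10 genes all 3 P 6-8w arrays lay below all 3 P 1d arrays, as they did in 34.1% of all genes, and Ccnd1 and Ccnd2 overlapped. An exact two-sided permutation test of 3 arrays against 3 cannot give a p below 0.1, which is the value each of these 8 genes had. The median difference of the 10 genes was -1.96, beside 0.04 for all genes.

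**Figure D1:**
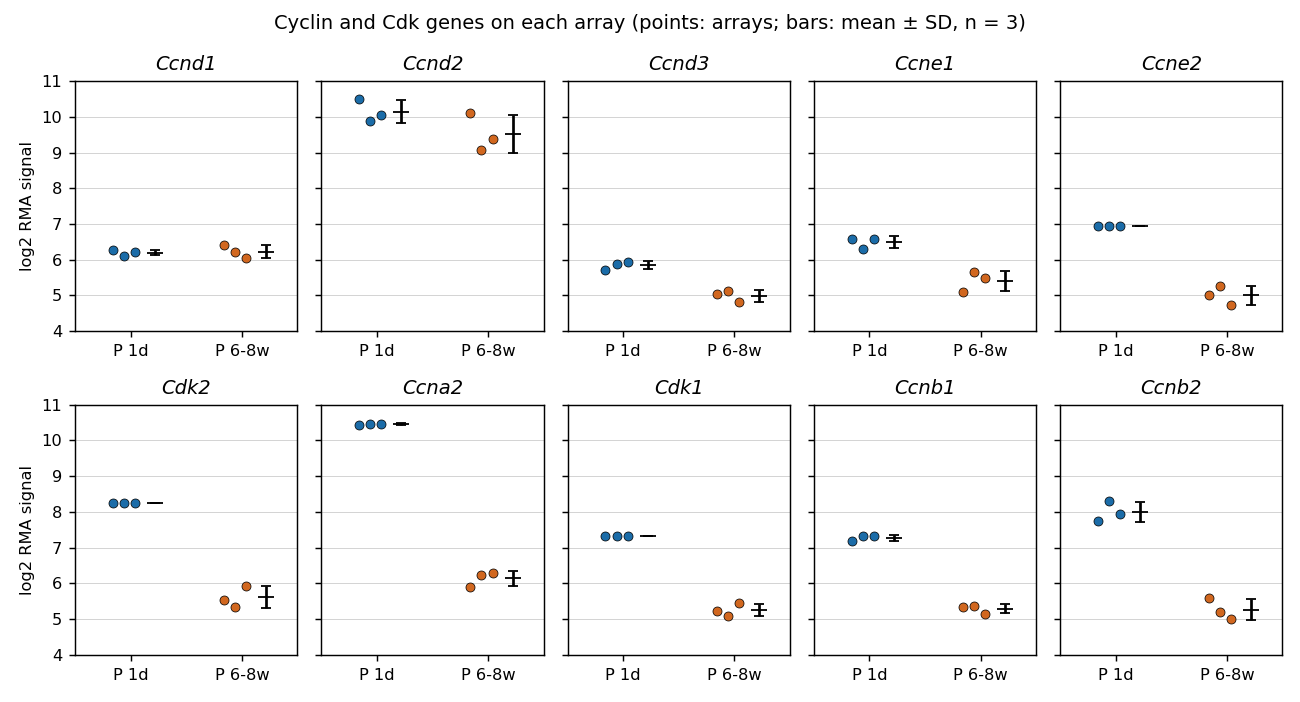
Each panel shows 1 gene, with the log2 RMA signal of the 3 P 1d arrays (blue) and the 3 P 6-8w arrays (orange) as points, replicates 1 to 3 from left to right, and the mean ± SD (n = 3) as bars. The ages overlap for Ccnd1 and Ccnd2 and are separate for the other 8 genes, most widely for Ccna2.

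Ccna2, the cyclin of S phase and of entry into mitosis, had signals of 10.42, 10.47 and 10.47 in newborn tendon (P 1d) against 5.91, 6.23 and 6.29 at P 6-8w. It had the largest difference of the 10, and the lowest P 1d array lay 4.13 above the highest P 6-8w array. The log2 difference was -4.31 ± 0.11 (SE; adjusted p = 8.17e-05 from limma), a signal 19.8 times as high at P 1d. In the other 6 genes called lower this fold ran from 2.10 (Ccne1) to 6.63 (Ccnb2). Whether the low signals at P 6-8w limited these folds was not tested. Ccna2 was called lower in every fit tried, with a difference between -4.44 and -2.52 in 18 alternatives.

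Cdk1, the kinase of mitosis, had the same signal of 7.32 on each P 1d array and 5.23, 5.10 and 5.44 at P 6-8w. Its difference was -2.06 ± 0.10 (SE; adjusted p = 0.000175 from limma). Ccnb1, a cyclin that Cdk1 needs for entry into mitosis, had 7.18, 7.32 and 7.32 at P 1d against 5.35, 5.38 and 5.15 at P 6-8w. These groups did not overlap, with a difference of -1.98 ± 0.09 (SE; adjusted p = 0.000156). The other B-type cyclin, Ccnb2, had 7.75, 8.31 and 7.94 at P 1d against 5.60, 5.21 and 5.0 at P 6-8w, a difference of -2.73 ± 0.21 (SE; adjusted p = 0.000579). The row used for Ccnb2 has an identifier coded for chromosome 1, although the gene lies on chromosome 8 in GRCr8; over 20825 autosomal rows with a gene on record, the code named the gene's chromosome in 98.9%. The other Ccnb2 row, coded for chromosome 8, had 7.16, 7.17 and 7.15 at P 1d against 5.11, 5.30 and 4.55 at P 6-8w, with a difference of -2.17 (adjusted p = 0.000903 in a fit over all rows with 1 gene). Both rows were therefore lower at P 6-8w on all arrays, and which of them reports the gene's own transcript was not tested.

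Cdk2, the kinase of the start and course of DNA replication, had 8.26 on each P 1d array and 5.55, 5.34 and 5.94 at P 6-8w. Its difference was -2.65 ± 0.16 (SE; adjusted p = 0.000299 from limma). Among its E-type partners, Ccne2 had 6.95 on each P 1d array and 5.02, 5.26 and 4.73 at P 6-8w, a difference of -1.95 ± 0.14 (SE; adjusted p = 0.000475). Ccne1 had 6.58, 6.29 and 6.58 at P 1d against 5.11, 5.65 and 5.48 at P 6-8w, so the groups came within 0.64 of each other. Its difference of -1.07 ± 0.17 (SE; adjusted p = 0.0046) was close to the limit of 1. Without P 6-8w replicate 1 the difference in Ccne1 was -0.92 and it was not called. With P 1d replicate 2, the array low in epidermal markers, alone at P 1d, neither E-type cyclin was called (Ccne1 at -0.88, adjusted p = 0.143; Ccne2 at -1.95, adjusted p = 0.0567); this fit takes the spread at both ages from the P 6-8w arrays. The same fit called Ccna2, Ccnb1, Ccnb2, Cdk1 and Cdk2 lower (adjusted p from 0.0296 to 0.0468), beside 4.95% of all genes.

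Identical values on the 3 P 1d arrays, as in Cdk1, Cdk2 and Ccne2, occurred in 16.6% of all genes, against 1.71% with 1 value on the 3 P 6-8w arrays. Some of these values were shared between genes as well: 7 genes had exactly the 3 P 1d values of Cdk1, 3 those of Cdk2 and 2 those of Ccne2, each count including the gene itself. Which step of the processing gave equal values is not stated in the methods or labels. The SD of these 3 genes at P 1d is thus 0, and their p-values rest on the spread at P 6-8w and on the spread that limma shares over genes. Ccna2 (10.47) and Ccnb1 (7.32) had equal values on P 1d replicates 2 and 3, and Ccne1 (6.58) on replicates 1 and 3. Whether such ties narrowed their P 1d spread, and so their SE and p-values, was not tested.

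The D-type cyclins, which rise in answer to growth factors, had smaller differences between the ages in the values as deposited. Ccnd1 had 6.26, 6.11 and 6.22 at P 1d against 6.42, 6.21 and 6.06 at P 6-8w. The groups lay over each other, with a difference of 0.03 and a 95% confidence interval from -0.24 to 0.30 (adjusted p = 0.803 from limma). Ccnd2 was bright at both ages, with 10.50, 9.87 and 10.06 at P 1d against 10.10, 9.07 and 9.37 at P 6-8w. Its difference was -0.63 with a wide interval from -1.41 to 0.15 (adjusted p = 0.134). Ccnd3 had 5.72, 5.87 and 5.94 at P 1d against 5.05, 5.13 and 4.81 at P 6-8w, with no overlap. Its difference of -0.85 (interval from -1.12 to -0.57, adjusted p = 0.00259) passed the p threshold and missed the fold limit. A second, dimmer Ccnd3 row, coded for chromosome 8 whereas the gene lies on chromosome 9 in GRCr8, had 4.53, 4.51 and 4.30 at P 1d against 4.12, 4.52 and 4.25 at P 6-8w and overlapped, with a difference of -0.15 (adjusted p = 0.345 over the same rows).

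Since brighter rows differed more between the ages, the members were also set beside genes of similar mean signal. In the range from 6 to 7 the median difference of 2471 genes was -0.84 and 39.2% were lower; Ccnb1, Ccnb2, Cdk1 and Cdk2 lay below that median and Ccnd1 above it. In the range from 8 to 10, where the median of 1288 genes was -1.70 and 72.7% were lower, Ccna2 lay far below the median at -4.31 and Ccnd2 above it at -0.63. In the range from 5 to 6 the median was -0.34, with 9.83% lower, and Ccnd3, Ccne1 and Ccne2 were below it. Ccnd2 and Ccna2, in 1 signal range, thus stood on opposite sides of its median.

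**Figure D2:**
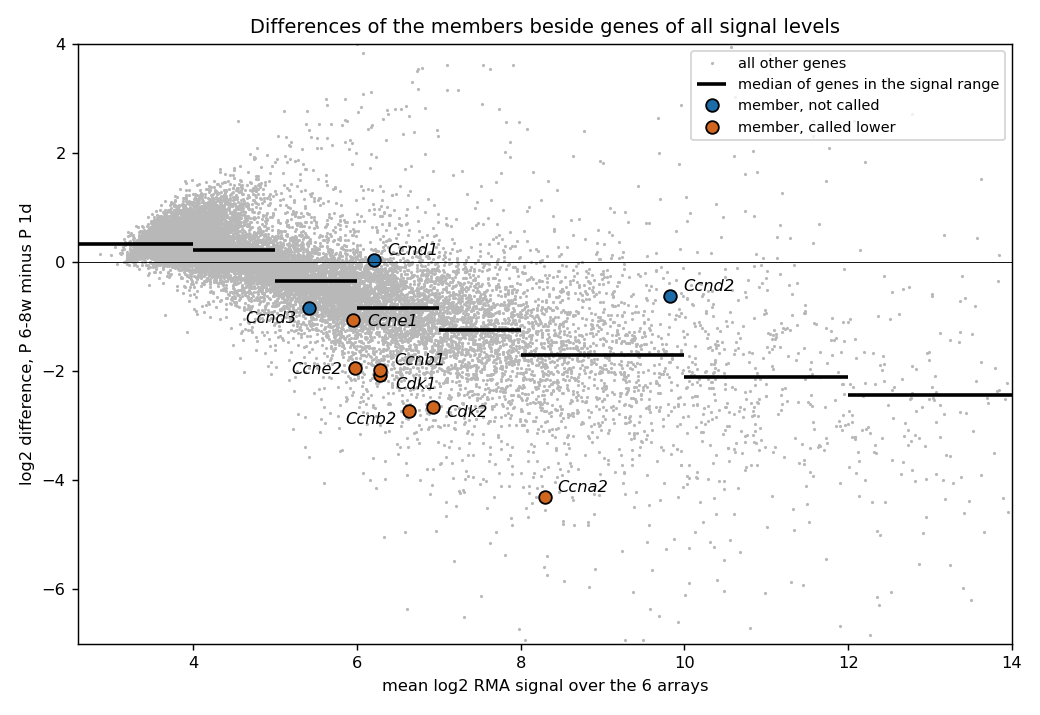
Each grey point is 1 gene, placed by its mean log2 RMA signal over the 6 arrays (x axis) and its log2 difference between P 6-8w and P 1d (y axis, shown from -7 to 4, and x axis up to 14, so that a few genes lie outside), and black bars give the median difference of the genes in a signal range. The 7 members called lower (orange) lie below the bar of their range and Ccnd1 and Ccnd2 (blue) above it, while Ccnd3 (blue) lies below.

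Scaling of the arrays moved the sizes and, for some members, the sign. Setting the median of all genes equal between arrays left the same 7 members lower, beside 19.4% of all genes. After quantile normalization 6 were lower, without Ccne1, and Ccnd2 was called higher at 1.28 (adjusted p = 0.00805 from limma). Under this scaling 4.49% of all genes were lower and 4.05% higher, and 52.6% of all calls were lower against 87.2% in the values as deposited. When arrays were instead aligned by the mean of 11 reference genes, 5 members were lower (Ccna2, Ccnb1, Ccnb2, Cdk1 and Cdk2) beside 6.35% of all genes, and the median of all genes moved to 1.00. When arrays were centred by the median of their brighter genes, those with a mean signal of at least 8, that median moved to 1.83. In that setting only Ccna2 was lower, at -2.52, beside 2.68% of all genes, and Ccnd1 and Ccnd2 were higher at 1.82 and 1.16, beside 78.2% of all genes called higher. Centring moves all 10 genes by the same amount, so their order can change only under quantile normalization. There Ccna2 still had the lowest difference (-2.90), followed by Ccnb2 and Cdk2 (-1.98 and -1.71), while Ccnd2 came to lie above Ccnd1 (1.28 and 0.81). The D-type cyclin Ccnd3 (-0.56) came to lie below the E-type cyclin Ccne1 (-0.47). Likewise Ccne2 (-1.45) came to lie below Cdk1 (-1.39) and Ccnb1 (-1.285).

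**Figure D3:**
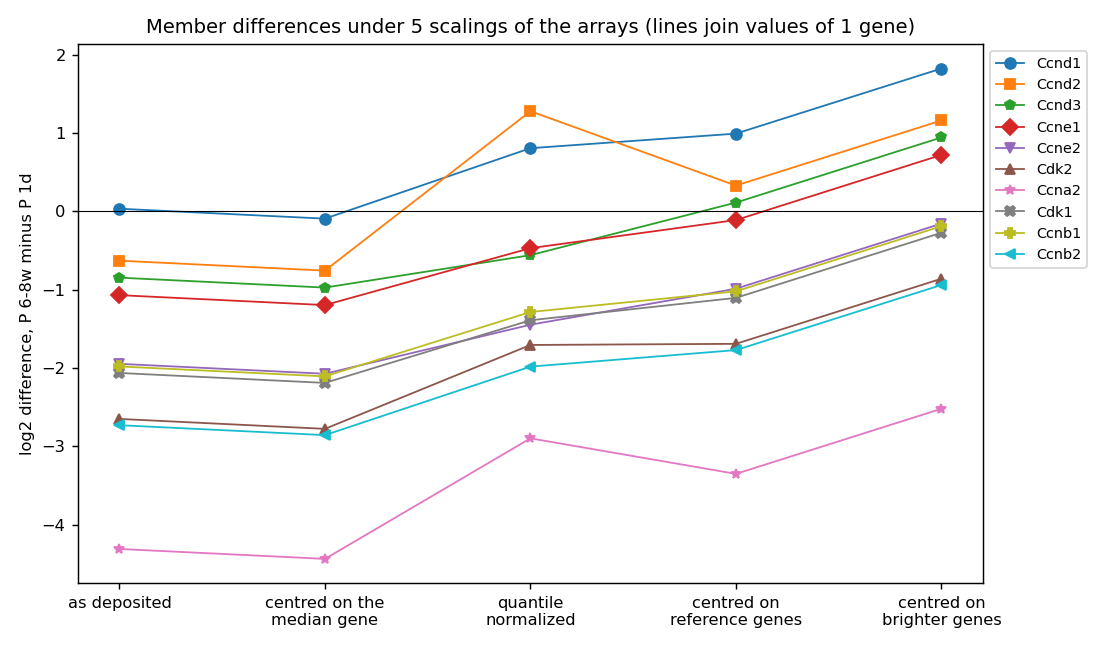
Log2 differences (P 6-8w minus P 1d, y axis) of the 10 genes are given for the values as deposited and for 4 other scalings of the arrays (x axis), each line joining the values of 1 gene. Centring shifts all lines alike, and centring on brighter genes places 4 genes above 0. Only quantile normalization can alter their order. There, among other changes, Ccnd2 (1.28) lies above Ccnd1 (0.81) and Ccnd3 (-0.56) below Ccne1 (-0.47).

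Ratios of a pair of genes within an array do not move when the array is centred anew. For 7 pairs of family members the log2 ratio was compared between the ages with an exact two-sided permutation test, which cannot give a p below 0.1; the ratio itself depends on the probes of each gene, so only its change is read. Ccna2 over Ccnb1 had the largest change of the 7, from 3.24, 3.15 and 3.15 at P 1d to 0.56, 0.85 and 1.14 at P 6-8w, with a change of -2.33 in the mean (exact permutation p = 0.1, 0.117 after Benjamini-Hochberg adjustment over the 7 pairs). The ratio of Ccnd1 over Ccnd3 was 0.54, 0.24 and 0.28 at P 1d against 1.37, 1.08 and 1.25 at P 6-8w, and that of Ccne1 over Ccne2 was -0.37, -0.66 and -0.37 at P 1d against 0.09, 0.39 and 0.75 at P 6-8w. In both pairs every P 6-8w array stood above every P 1d array. The changes of the mean ratio were 0.66 for Ccnd1 over Ccnd2, 0.75 for Ccnb1 over Ccnb2 and 0.59 for Cdk1 over Cdk2, again with no overlap between the ages. Each of these 6 pairs had the smallest p the test allows, and none passed after adjustment. Cdk1 over Cdk2 was -0.94 on each P 1d array, since both genes had equal values there. How often other pairs of genes separate by age was not counted. Ccnd2 over Ccnd3 overlapped, with a change of 0.22 (exact permutation p = 0.7). At P 6-8w the mean signals of Ccnb1, Ccnb2, Cdk1 and Cdk2 lay between 5.26 (Cdk1) and 5.61 (Cdk2), and that of Ccna2 was 6.14. The median gene stood at 4.75 to 4.79 on these arrays. Whether signals this low narrow the distance between a pair of genes, and so change its ratio, was not tested. Quantile normalization is not a shift and did move ratios. It turned the change of Ccnd1 over Ccnd2 to -0.47, raised that of Ccnd2 over Ccnd3 from 0.22 to 1.84 and that of Ccnd1 over Ccnd3 from 0.88 to 1.37, and brought Cdk1 over Cdk2 from 0.59 to 0.32 and Ccna2 over Ccnb1 from -2.33 to -1.61. The changes of Ccne1 over Ccne2 and Ccnb1 over Ccnb2 moved by less than the spread between replicates, to 0.98 and 0.70.

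**Figure D4:**
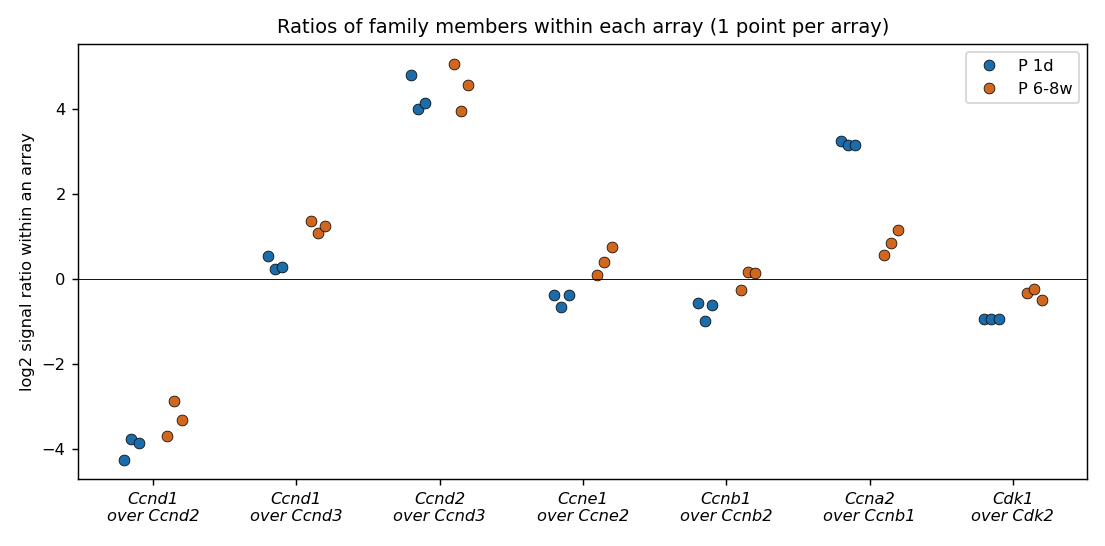
The log2 ratio of the signals of a pair of genes within each array (y axis) is given for 7 pairs (x axis), with 1 point for each P 1d (blue) and P 6-8w array (orange). The ages are separate in 6 of the 7 pairs and overlap for Ccnd2 over Ccnd3, and the widest gap is that of Ccna2 over Ccnb1.

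The other cyclins of a hand-written list mostly serve transcription or have other roles. They were lower in 7 of 19 genes (36.8%) and higher in none, with a median difference of -0.72. This share and those of the lists below, in the values as deposited, stand beside 16.8% of all genes called lower. Of 11 reference genes 5 were lower (45.5%), with a median of -0.88. Ccng2, an atypical cyclin linked to cell cycle arrest, had a difference of -1.99 and Ccnl2, of RNA splicing, of -1.92 (adjusted p = 0.0112 and 0.00471 from limma). Ccnt2 and Ccnt1, the partners of Cdk9 in transcription elongation, had -1.77 and -1.61 (adjusted p = 0.00115 and 0.0115). Of 17 other CDKs, 7 were lower (41.2%) and none higher, with a median of -0.55. Cdk4, the partner of the D-type cyclins, had 9.62, 9.62 and 9.36 at P 1d against 6.63, 6.29 and 6.69 at P 6-8w, a difference of -3.0 (adjusted p = 0.000173). Cdk6, the other partner, had 6.33, 6.43 and 6.49 against 5.76, 6.06 and 5.84 and was not called, with a difference of -0.53 (adjusted p = 0.00806). The pair of kinases that D-type cyclins use therefore had differences of unlike size, which was not tested further. Cdk14, which pairs with cyclin Y, and Cdk16 had -2.52 and -1.99 (adjusted p = 0.000374 and 0.00381), and Cdk13, a transcription kinase, had -1.85 (adjusted p = 0.0096).

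Among 13 activators and subunits of CDKs, 8 were lower (61.5%) and none higher, with a median of -1.28. Plk1, the polo kinase of mitotic entry, had 6.89, 7.26 and 7.26 at P 1d against 4.72, 4.35 and 5.21 at P 6-8w, a difference of -2.38 (adjusted p = 0.00126 from limma). Bora, a cofactor in the activation of Plk1, and Mnat1, a subunit of the CDK-activating kinase with Cdk7 and cyclin H, had -1.91 and -1.86 (adjusted p = 0.00141 and 0.000175). Cdc25a, the phosphatase that removes inhibitory phosphates from CDKs, had -1.70 (adjusted p = 0.000358), while Cdc25b and Cdc25c were not called at -0.30 and -0.65. Of 15 inhibitors and brakes, 6 were lower (40%) and none higher, with a median of -0.23. Cdkn1c, an inhibitor of the p57 type, had -6.35, the largest difference of any cell cycle gene listed here, and Cdkn1a, which encodes the inhibitor p21, had 6.72, 8.12 and 7.78 at P 1d against 4.17, 3.94 and 4.17 at P 6-8w, a difference of -3.45 (adjusted p = 0.000146 and 0.00146). The pocket proteins Rbl1 and Rb1, which hold back E2F factors, had -2.32 and -1.58 (adjusted p = 0.000112 and 0.00597). Genes that restrain and genes that activate CDKs were thus both among the lower ones, beside 45.5% of the reference genes. The 4 Cdkn2 genes measured (Cdkn2a, Cdkn2b, Cdkn2c and Cdkn2d) lay between -0.12 and 0.47 and were not called. Their mean signals at P 1d were only 3.39 to 5.21, and whether this limited the differences was not tested.

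Cyclins are destroyed by the anaphase-promoting complex and by SCF ubiquitin ligases, and of 24 genes of these systems 12 were lower (50%) and none higher, with a median of -1.01. Skp2, the SCF subunit that recognises p27, had 8.86, 8.97 and 9.05 at P 1d against 4.5, 5.25 and 4.85 at P 6-8w, a difference of -4.09 (adjusted p = 0.000181 from limma). The complex subunits Cdc27, Anapc5 and Cdc16 had -3.04, -2.84 and -2.60 (adjusted p from 0.000995 to 0.00181), whereas its coactivators Cdc20 and Fzr1 had -0.48 and -0.12 and were not called. These coactivators were dim already at P 1d (mean signals 4.84 and 5.24), beside 8.60 to 11.81 for the subunits named. Few genes this dim were called lower (0.473% at a mean of 4 to 5). Whether dim signals limited the differences was not tested. Of 22 transcription factors and cofactors of cyclin genes, 8 were lower (36.4%) and none higher, with a median of -0.79. These included Rbbp4, a histone-binding protein of the complex that represses and activates cell cycle genes, at -2.64, Tfdp1, the dimer partner of E2F factors, at -1.69, Nfyc, an NF-Y subunit, at -1.47, and E2f6, a repressor, at -1.44 (adjusted p from 0.000271 to 0.0027). E2f1, Foxm1 and Mybl2, which drive S and M phase genes, had -0.34, -0.74 and -0.89 and missed the fold limit. Their mean signals at P 1d were 5.29, 5.37 and 6.21.

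Of 20 genes of S and M phase, 17 were lower (85%) and none higher, with a median of -1.99, close in value to that of the 10 cyclin and CDK genes. Mki67, the gene of the Ki67 marker of dividing cells, had -4.82, Rrm1, a ribonucleotide reductase subunit, -4.75, Top2a, a DNA topoisomerase, -4.10, and Mcm4, of the replicative helicase, -3.61 (adjusted p from 1.32e-05 to 0.00021 from limma). Mki67 had a signal of 11.98 on each P 1d array against 6.96, 7.18 and 7.35 at P 6-8w. Top2a (9.91) and Mcm4 (9.65) also had the same value on each P 1d array, so their SD there was 0. Pcna, the sliding clamp of DNA polymerase, had 9.51 on each P 1d array against 6.63, 6.17 and 6.75 at P 6-8w, a difference of -2.99 (adjusted p = 0.000228). Birc5, Cdc6 and Cdt1 were not called, at -0.85, -0.49 and -0.41. Counts of these lists depended on the scaling. With the median of all genes set equal between arrays, 14 of the destruction genes and 10 of the transcription factors were lower and the other 5 counts did not move. That setting called 19.4% of all genes lower. Under the scalings given next the share of all genes lower was 4.49% (quantile normalization), 6.35% (reference genes) and 2.68% (brighter genes). After quantile normalization 14 of the 20 S and M phase genes were lower, but none of the other cyclins, 1 of the other CDKs, 4 of the activators, 3 of the inhibitors, 6 of the destruction genes and 1 of the transcription factors. With the arrays centred on the reference genes these numbers were 10, 1, 3, 1, 3, 7 and 1, and with the arrays centred on their brighter genes 5, 0, 1, 0, 2, 3 and 0, in the same order. With P 1d replicate 2 alone at P 1d they were 11, 0, 1, 1, 3, 1 and 2. Some genes of these lists were called higher under other scalings. After quantile normalization 2 other cyclins and 1 other CDK were higher, beside 4.05% of all genes. Centred on the reference genes, 5 other cyclins, 2 other CDKs, 1 activator, 4 inhibitors and 3 transcription factors were, beside 11046 of 22093 genes. In the centring on brighter genes, where 78.2% of all genes were called higher, between 2 and 12 genes of each list were.

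**Figure D5:**
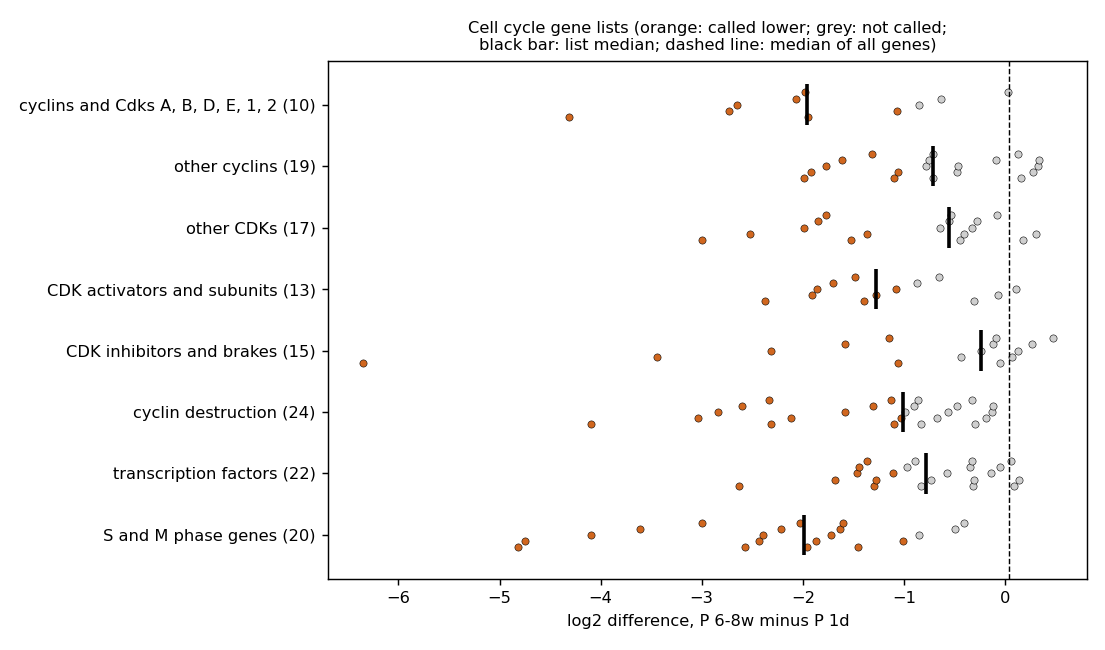
Each point is the log2 difference (P 6-8w minus P 1d, x axis) of 1 gene in the 10 cyclin and CDK genes and in 7 other cell cycle lists (rows, with the number of genes measured), orange where called lower and grey where not called. Black bars are list medians and the dashed line is the median of all genes, 0.04; the medians of the top and bottom rows, -1.96 and -1.99, are the lowest.

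The genes outside the 10 with the profile most like the mean of Ccna2, Ccnb1, Ccnb2 and Cdk1, by the root mean square distance of the 6 signals after each gene's own mean was subtracted, were Casc5, a kinetochore scaffold, Smarcb1, a chromatin remodelling subunit, Adnp, a homeobox zinc finger gene, Gnl2, a nucleolar GTPase, and Sec61a2, a channel subunit of the endoplasmic reticulum. Their distances were 0.08 to 0.10 log2 units over 6 arrays, and their differences lay between -2.86 and -2.76. Nearest to the mean of the D-type cyclins were Pkp4, of cell junctions, Cyld-ps1, the kinase gene Mark1, the thioredoxin reductase gene Txnrd1 and C17h5orf24, at distances of 0.04 to 0.06 and with differences between -0.50 and -0.44. With 2 groups of arrays such a likeness reflects mostly the size of the difference between the ages.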

How the data were processed

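RNA of 6 tendons was hybridised to Affymetrix Rat Transcriptome Arrays 1.0, 3 per age. The authors summarised probes by RMA under its defaults, scaled globally, and deposited the result as log2 signals. The other deposited table repeated these log2 values (413052 of 413052 equal). The genome build of the annotation was not given in the sources used here. For arrays, the number of arrays limits the precision.

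Of 68842 rows, 23446 carried 1 platform gene symbol, 505 several and 44891 none. Symbols were updated by Entrez ID (1 changed), and of a gene's rows the one with the highest mean was kept (1182 genes had several). Groups came from the sample titles. A model of age alone was fitted to all 22093 genes with limma 3.58.1 under R 4.3.3, and moderated p-values were adjusted over all of them. The study's methods used the t-test without adjustment at a fold change over 2, which was tried beside it. The step was tested on simulated data with independent normal noise and equal numbers of rises and falls. That simulation held no tied values and no shift with signal, so it does not test how the fit handles these. Members and lists were chosen with earlier results of these data known. The named genes are the 10 members, Cdk4, Cdk6, Mki67, Pcna, the called genes with the largest differences in each list (up to 4), and the 5 nearest profiles; others (among them Cd68, Lyz2, Cdc25b, Cdc25c, the Cdkn2 genes, Cdc20, Fzr1, E2f1, Foxm1, Mybl2, Birc5, Cdc6 and Cdt1) were named after their values were seen. Replicate numbers did not pair the arrays, and proteins were not used here.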

Additional observations from a re-analysis of the deposited data

How the results depend on the processing

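In 11 of 18 alternatives 7 members were lower, but most of these refit the values without rescaling the arrays. Among the rescalings only centring on the median of all genes kept 7. Quantile normalization left 6 and the reference genes 5. With the arrays centred on their brighter genes 1 was lower and 2 were higher, and after quantile normalization 1 was higher; the cause was not tested. Differences changed sign in Ccnd1 (-0.0933 centred on the median of all genes; -0.0617 to 0.118 leaving out 1 array, below 0 without P 1d replicate 2 or P 6-8w replicate 1), Ccnd2 (0.33 on reference genes, 1.16 on brighter genes, 1.28 after quantile normalization), Ccnd3 (0.11 on reference genes, 0.94 on brighter genes) and Ccne1 (0.72 on brighter genes). The change of Ccnd1 over Ccnd2 was -0.47 after quantile normalization. That of Ccnd2 over Ccnd3 was 1.84 after quantile normalization and, leaving out 1 array, ran from -0.05 (without P 6-8w replicate 1) to 0.51. As a replicate block, the replicate number left 7 members lower, the same 7, and same-numbered arrays did not deviate together (correlations 0.01, -0.11 and 0.05). All genes lower and higher numbered 3717 and 544 as deposited, 4279 and 342 centred on the median, 991 and 894 after quantile normalization, 1404 and 11046 on reference genes, 593 and 17286 on brighter genes, 3386 and 118 with dim genes left out, 6759 and 5246 without the fold limit (which calls Ccnd3 lower, 8 members), and 1093 and 67 with P 1d replicate 2 alone. With dim genes, those with a mean under 6, left out, 7 members were tested and 5 were lower.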

Other observations

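The letters marked in the B-type cyclin and Cdk1 promoters were also counted over all tested genes with a promoter entry. This was done after these promoters had been read and with no test. Except where stated, the counts include the members, among them Ccnb1, Ccnb2 and Cdk1, whose promoters set the interval. Among 17125 tested genes with a RefSeq promoter entry, 17.1% were lower at P 6-8w, with a median difference of 0.03. Of the 181 with a pair of CCAAT 31 to 34 bases apart on 1 strand, 57 (31.5%) were lower and none higher, with a median of -0.50. Of the 2741 with TTTGAA, 14.2% were lower, with a median of 0.21. Of the 30 genes outside the members that had both, 10 (33.3%) were lower and none higher, with a median of -0.80. Of the 487 with any of the E2F letters, 158 (32.4%) were lower and 3 higher, with a median of -0.46. Mean signal was not matched between these groups, and the share of lower genes varied with it, from 0.473% at a mean of 4 to 5 to 72.7% at 8 to 10.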
